A study of Mus musculus with 4 samples.

Results

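The genes for the proteins of the cytosolic ribosome were examined in an m6A peak survey of inguinal white adipose tissue from obese mice. They were taken as all protein-coding genes of the RefSeq annotation of mouse assembly GRCm38.p6 (mm10) whose symbol begins with Rpl or Rps followed by a digit, a or p, leaving out the Rps6k kinases. This gave 91 of the 21887 protein-coding genes on the chromosomes of the peak lists. Of the 91, 46 encode standard proteins of the large subunit and 31 standard proteins of the small subunit, 13 are copies or relatives of these genes (such as Rpl3l, Rps27l and Rpl36al), and 1, Rps19bp1, encodes a protein that binds RPS19 and is no part of the ribosome. All 91, Rps19bp1 included, are called members or ribosomal protein genes below and in the figures. Fau and Rack1, which also encode ribosomal proteins, lie outside the symbol rule and were looked at separately.

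The libraries, 1 of each kind, came from male C57BL/6 mice aged 23 weeks with obesity induced by a high-fat diet, given vehicle or entacapone. Entacapone is a catechol-O-methyltransferase inhibitor used in Parkinson's disease and has been reported to inhibit FTO, an enzyme that removes m6A. For each treatment there was an input library of fragmented poly(A) RNA and a library of the RNA recovered with an antibody against N6-methyladenosine (m6A), called the IP. The labels give neither the dose nor the number of animals behind a library. The inputs held 24548212 (vehicle) and 33164576 (entacapone) gene counts, and the lists held 22860 and 31856 peaks; the read depth of the IP libraries is unknown. With 1 library per treatment there was no replicate and no test between treatments, so each difference given here lies between these libraries. Of 12 white adipocyte genes, 5 carried a peak in the vehicle list and 7 in the entacapone list. Over all protein-coding genes the shares with a peak were 41.1% and 50.0%. Pparg, the master regulator of fat cells, had 3 and 6 peaks, and Plin1, which coats the lipid droplet, had 2 and 4. Adipoq, Fabp4, Cfd, Pnpla2 and Car3 had 0 in both. The identifiers of the input counts could not be paired with gene names, so no level of a marker or of a ribosomal protein gene is given.

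The cytosolic ribosome joins 1 copy of nearly every ribosomal protein with ribosomal RNA, and its genes are transcribed at high, matched rates in all growing cells. Their mRNAs are short, have short untranslated regions and begin with a tract of C and T at the transcription start, the terminal oligopyrimidine (TOP) tract, through which mTORC1 signalling and LARP1 control their translation. m6A is an adenosine methylation of mRNA that METTL3 and METTL14 add, FTO and ALKBH5 remove and YTH proteins read, and it is densest near stop codons and in long internal exons.

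Starts of peak-bearing members are shown for the C/T tract for which the family is known. These are the 6 with the longest C/T runs, and Rpl9 and Rps19bp1, with short runs and a peak in both lists. Each line holds the 15 bases before the annotated start and the first 15 transcribed bases, read 5′ to 3′ on the transcribed strand from the RefSeq promoter windows of GRCm38.p6, with the longest run of C and T in capitals. Where a gene had several annotated starts, the one with the longest run is shown.
Rpl34 (chr3:130730323-130730352, minus strand): CCTTCCTTTTCCTCTTCCggggacggtgct
Rpl13a (chr7:45128731-45128760, minus strand): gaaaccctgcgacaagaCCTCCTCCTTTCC
Rpl28 (chr7:4792950-4792979, plus strand): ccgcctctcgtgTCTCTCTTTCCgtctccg
Rps6 (chr4:86857353-86857382, minus strand): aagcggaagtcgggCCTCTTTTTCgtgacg
Rplp2 (chr7:141447636-141447665, plus strand): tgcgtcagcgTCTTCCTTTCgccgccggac
Rps27l (chr9:66946071-66946100, plus strand): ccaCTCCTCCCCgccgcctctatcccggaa
Rpl9 (chr5:65391417-65391446, minus strand): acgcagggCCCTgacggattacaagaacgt
Rps19bp1 (chr15:80264292-80264321, minus strand): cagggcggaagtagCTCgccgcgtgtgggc

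Within the printed bases the run was 18 long in Rpl34, 13 in Rpl13a, 11 in Rpl28, 10 in Rps6 and Rplp2 and 9 in Rps27l. It was 4 in Rpl9 and 3 in Rps19bp1. The runs of Rpl34 and Rpl13a reach the edge of the printed bases and may go on beyond it. The run of Rps27l lies wholly before the start shown, and most of the run of Rpl34 lies before its start. The run of Rpl13a begins after the first transcribed base, and those of Rpl28, Rps6 and Rplp2 span the start. Of the 14 peak-bearing members with a promoter window, 6 had a run of at least 8 in these 30 bases, and the other 8, with runs of 2 to 7 bases, did not. A wider interval, 30 bases on each side of any annotated start, was searched over the 70 members with a promoter window. In it 38 members (54.3%) had a run of at least 8 C or T, against 4413 of 17422 other protein-coding genes (25.3%). The 6 of 14 and the 38 of 70 thus come from unlike intervals. The same run on the opposite strand, read as A and G, was in 8 members (11.4%) and in 28.2% of the other genes. The motif CTTTC lay on the transcribed strand in the same interval in 25 members (35.7%) and in 8.15% of the other genes. It can be part of a C/T run, and over the whole window of 300 bases and both strands it was in 81.4% of members and 58.5% of the others. The motif CCGGAAG, the core bound by ETS factors such as GABPA, was on either strand of the whole window in 26 members (37.1%) and in 12.9% of the others. Within 30 bases of a start and on the transcribed strand alone it was in 14.3% and 3.2%. The TATA motif TATAAA was in 12.9% of members and 14.8% of the others over the whole window and both strands, and in 5.71% and 2.74% near the start on the transcribed strand. These matches describe the letters in the windows and not sites of binding.

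**Figure D1:**
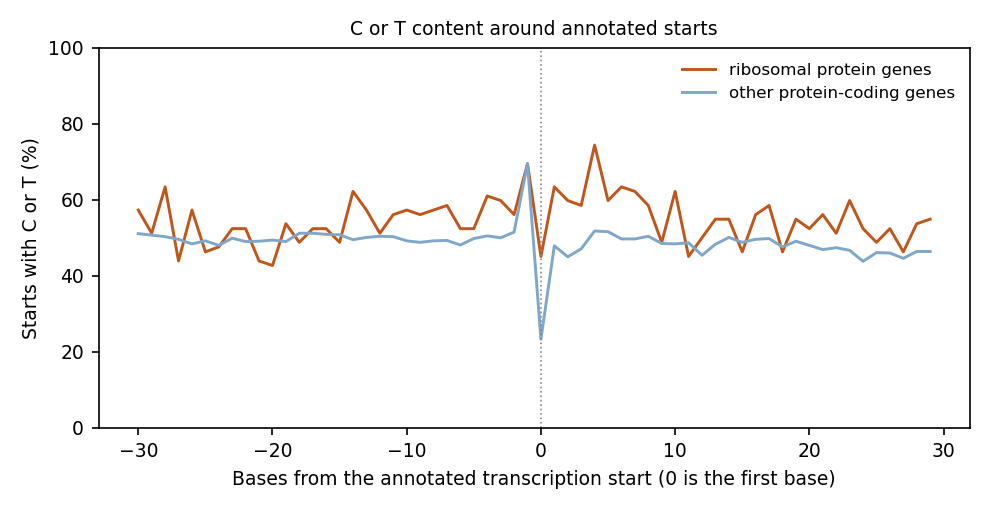
Share of annotated starts with C or T at each base from 30 before to 29 after the first transcribed base (0), for 82 starts of 70 ribosomal protein genes and 21181 starts of 17422 other protein-coding genes. At the first base C or T stood in 45.1% of ribosomal protein gene starts and 23.3% of the others, and over the first 10 bases the mean was 59.4% and 46.5%.

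At the first transcribed base, which is A or G at most mammalian starts, C or T stood in 45.1% of the members' starts and in 23.3% of the others. Over the first 10 bases the mean share of C and T was 59.4% and 46.5%, whereas 21 to 30 bases before the start it was 51.6% and 49.5%. The plot of base content by position shows the members above the other genes over those first bases.

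Few of these genes carried an m6A peak. A peak was counted for a gene when its midpoint lay in the gene's span. In the vehicle list 7 of 91 members had a peak (7.69%, exact binomial 95% interval 3.15 to 15.2), where 41.1% of all protein-coding genes had one. In the entacapone list 11 members had a peak (12.1%, interval 6.19 to 20.6), where 50.0% of all protein-coding genes had one. Such intervals cover counting error only, and genes are not replicates. Together 15 members had a peak in either list, 3 of them in both, and 76 had none. A gene without a listed peak is not thereby shown to lack m6A.

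A peak in the vehicle list alone was found for 4 members (4.40%), against 2.4% of all protein-coding genes, and a peak in the entacapone list alone for 8 (8.79%), against 11.2%. The rise from 7 to 11 members lay beside a rise over all genes, from 9002 to 10938, in a list that was longer by 8996 peaks.

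The peak-bearing members were also counted by class, beside the 41.1% (vehicle) and 50.0% (entacapone) of all protein-coding genes with a peak. Of the 46 large-subunit genes, 3 had a vehicle peak (6.52%, interval 1.37 to 17.9) and 6 an entacapone peak (interval 4.94 to 26.3%). Of the 31 small-subunit genes, 0 had a vehicle peak (interval up to 11.2%) and 2 an entacapone peak (6.45%, interval 0.791 to 21.4). Both subunits together gave 3 and 8 of 77. Of the 13 copies and relatives, 3 had a vehicle peak (23.1%, interval 5.04 to 53.8) and 2 an entacapone peak (15.4%, interval 1.92 to 45.4), in different genes. The intervals of the 3 classes overlap in each list.

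Gene length was set beside these shares because longer spans hold more peaks in both lists. The median span of the members was 3175 bp, against 17288 bp for the other protein-coding genes. Among spans of 1 to 10 kb, 8.33% of 84 members had a vehicle peak and 13.1% an entacapone peak, against 27.5% and 36.5% of 6266 other genes. Of the 24 members with spans of 2 to 3 kb, the most filled class, 0 had a peak in either list (interval up to 14.2%), against 24.9% (vehicle) and 33.5% (entacapone) of 792 other genes of that length. For spans of 3 to 4 kb the members were close to the others in the vehicle list, with 4 of 17 (23.5%, interval 6.81 to 49.9) against 199 of 795, and had 5 of 17 (29.4%, interval 10.3 to 56.0) against 35.2% in the entacapone list. Under 2 kb, 0 and 2 of 17 members had a peak, against 5.81% and 8.22% of the others. For spans of 4 to 5 kb, 0 of 17 members had a vehicle peak (interval up to 19.5%) against 28.9%, and 2 of 17 an entacapone peak (11.8%, interval 1.46 to 36.4) against 36.8%. For 5 to 10 kb, 3 of 14 had a vehicle peak (21.4%, interval 4.66 to 50.8) against 33.5%, and 2 of 14 an entacapone peak (14.3%, interval 1.78 to 42.8) against 44.1%. The members' share was thus below that of the other genes in every class from 2 to 10 kb in both lists, by little at 3 to 4 kb, and in the entacapone list was above it under 2 kb. Expression, which bears on how readily a peak is found, could not be set beside these shares.

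**Figure D2:**
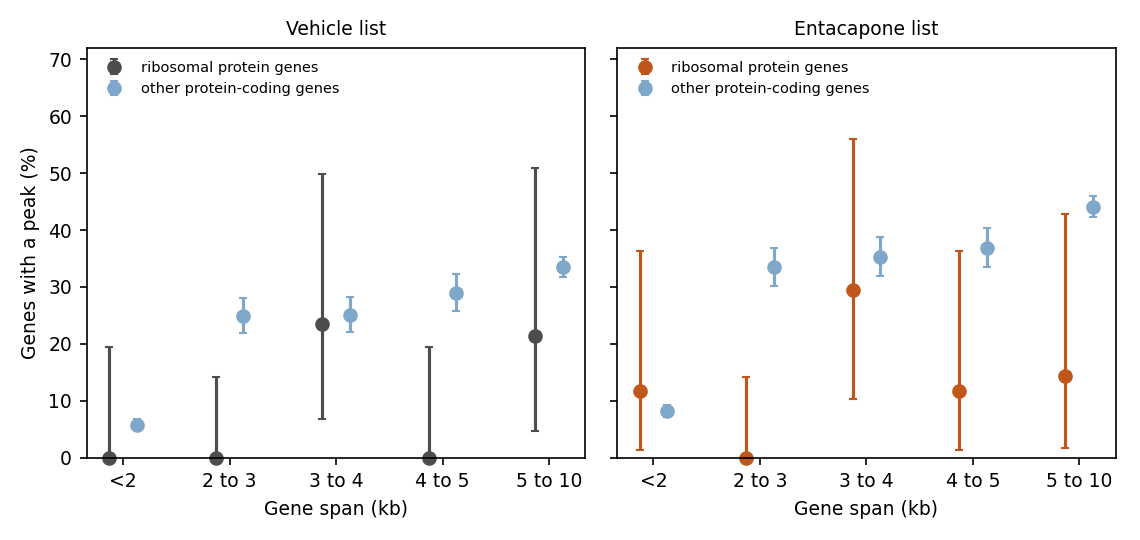
Share of genes with at least 1 peak (%) by length of the gene span (kb) in the vehicle list (left) and the entacapone list (right); points are shares and bars exact binomial 95% intervals. Ribosomal protein genes are at 0 in both lists for spans of 2 to 3 kb and near the other genes for 3 to 4 kb; spans of 10 kb or more, with 2 ribosomal protein genes, are not drawn.

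The shares were set beside those of the mitochondrial ribosome and the proteasome, large complexes of protein synthesis and breakdown. Of 78 genes for proteins of the mitochondrial ribosome (symbols Mrpl and Mrps with a number), 29 had a vehicle peak (37.2%) and 54 an entacapone peak (69.2%). Limited to spans of 1 to 10 kb, 17 and 37 of 53 did (32.1%, interval 19.9 to 46.3, and 69.8%, interval 55.7 to 81.7). These intervals do not overlap those of the cytosolic ribosomal protein genes in the same range of spans, 3.42 to 16.4 in vehicle and 6.72 to 22.2 in entacapone. With peaks of fold at least 2 in those spans, 9 of 53 mitochondrial genes had a vehicle peak (interval 8.07 to 29.8%), which overlaps the members' 7.14% (2.67 to 14.9), and 17 of 53 an entacapone peak (interval 19.9 to 46.3%), which does not overlap the members' 3.57% (0.743 to 10.1). At a fold of at least 4 the intervals overlapped in both lists, with 5.66% of the mitochondrial genes in each (1.18 to 15.7) against 2.38% and 0 of the members (0.29 to 8.34 and up to 4.3). Over all spans, the mitochondrial genes with an entacapone peak went from 54 to 29 of 78 at a fold of at least 2. Of 40 proteasome subunit genes (Psma to Psmd), 2 had a vehicle peak (5.00%) and 13 an entacapone peak (32.5%), and with spans of 1 to 10 kb 0 and 4 of 18 did (22.2% in entacapone, interval 6.41 to 47.6). The proteasome intervals overlap those of the cytosolic ribosomal protein genes. Within 1 to 10 kb the median span was 5555 bp for the mitochondrial, 5760 bp for the proteasome and 3206 bp for the cytosolic ribosomal protein genes. Length was thus not matched between families. The intervals cover counting error only, and the difference between families was not tested.

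The members with a peak in both lists numbered 3, with positions written as the deposited lists give them on mm10. The fold quoted with each peak is an unlabelled value of the deposited lists, taken to be the linear enrichment of the IP over the input, which ranks peaks within its own list.

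Rpl34, a large-subunit protein, had a vehicle peak at chr3:130730225-130730293 (68 bp, fold 2.75) and an entacapone peak at chr3:130730226-130730299 (73 bp, fold 1.97). Their midpoints differed by 3 bp and lay 139 and 136 bp after the outermost annotated start of Rpl34. They lay 78 and 75 bp after the second start, whose C/T run, mostly before that start, is the longest printed above. Rpl9, another large-subunit protein, had its peaks at the opposite end of the gene, at chr5:65388436-65388549 (113 bp, fold 1.89) in the vehicle list and chr5:65388430-65388552 (122 bp, fold 2.12) in the entacapone list. Their midpoints were 128 and 127 bp from the 3′ end of the Rpl9 span.

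Rps19bp1, also known as AROS, encodes a binding partner of RPS19 and of the deacetylase SIRT1. Its peaks were the widest of any member, at chr15:80260695-80261017 in the vehicle list (322 bp, fold 3.19) and chr15:80260682-80261083 in the entacapone list (401 bp, fold 2.08), with midpoints 242 and 268 bp from the 3′ end. All other member peaks were between 51 and 122 bp wide. Each of the 3 pairs overlapped by at least 50% of the shorter peak.

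The vehicle list alone held peaks in 4 members, of which 1 is a standard ribosomal protein. Rplp2, an acidic protein of the ribosomal stalk that recruits translation factors, had a peak at chr7:141448701-141448802 (fold 2.60), 1100 bp from the 5′ end of its span of 3709 bp. Rpl3l, the striated-muscle form of Rpl3, had a peak at chr17:24733347-24733453 (fold 4.75), and Rpl37rt, which RefSeq lists with Rpl37 among its synonyms, one at chr5:115103237-115103319 (fold 5.59), the highest fold of any member peak. Rpl7l1, a nucleolar relative of Rpl7 that acts in large-subunit assembly, had a peak at chr17:46774119-46774231 (fold 2.70), 268 bp from its 3′ end. The nearest midpoint in the entacapone list was 932 bp away for Rpl7l1 and at least 5858 bp away for the other 3. Skeletal muscle genes were measured beside Rpl3l: 8 of 12 muscle genes had a peak in each list, with 21 vehicle and 37 entacapone peaks in all. The shares over all protein-coding genes were 41.1% (vehicle) and 50.0% (entacapone). Myh2, a fast myosin, had 5 and 5 peaks, Myh7, the slow myosin, had 5 and 4, and Ttn, titin, had 0 and 9, so it was in the entacapone list alone. Myh4, another fast myosin, named here after its values were seen, had 3 and 0, in the vehicle list alone as Rpl3l was. Acta1, Ckm and Mylpf had 0 in both. The part of muscle tissue in the Rpl3l peak was not tested.

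The entacapone list alone held 9 peaks in 8 members, 6 of which are standard ribosomal proteins. Rps6, the substrate of the S6 kinases downstream of mTORC1, had a peak at chr4:86854527-86854606 (fold 1.90), 467 bp from the 3′ end. Rps19, the gene most often mutated in Diamond-Blackfan anaemia, had a peak at chr7:24888887-24888992 (fold 1.89), 872 bp from the 3′ end. These were the only peaks in small-subunit genes.

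Among large-subunit genes, Rpl13a, which is released from the ribosome to silence inflammatory mRNAs in myeloid cells, had an entacapone peak at chr7:45128601-45128685 (fold 1.88), 102 bp after its annotated start. Rpl28 had a peak at chr7:4794409-4794514 (fold 1.70), 86 bp from its 3′ end, and Rpl22 one at chr4:152332438-152332553 (fold 1.60), 1587 bp from its 3′ end. Rpl36 had a peak at chr17:56610130-56610202 (fold 2.23), 72 bp from the end of its span with the lower coordinate. Rpl36 has no promoter window in the table used and thus no strand here.

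The copies with an entacapone peak were Rps27l, a p53-inducible relative of Rps27, and Rpl36al, a relative of Rpl36a. Rps27l had a peak at chr9:66946139-66946205 (fold 1.78), 86 bp after the first of its starts in the promoter table, shown above, and before the next. Its RefSeq span begins further upstream, 1548 bp from the peak's midpoint. Rpl36al was the sole member with more than 1 peak in a list, at chr12:69182787-69182838 (fold 1.98) and chr12:69183019-69183117 (fold 1.5), 78 and 334 bp from its 3′ end. For these 9 peaks the nearest vehicle midpoint was between 1941 and 29284 bp away. At none of the 19 member peaks did the midpoint also lie in another gene of the table.

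**Figure D3:**
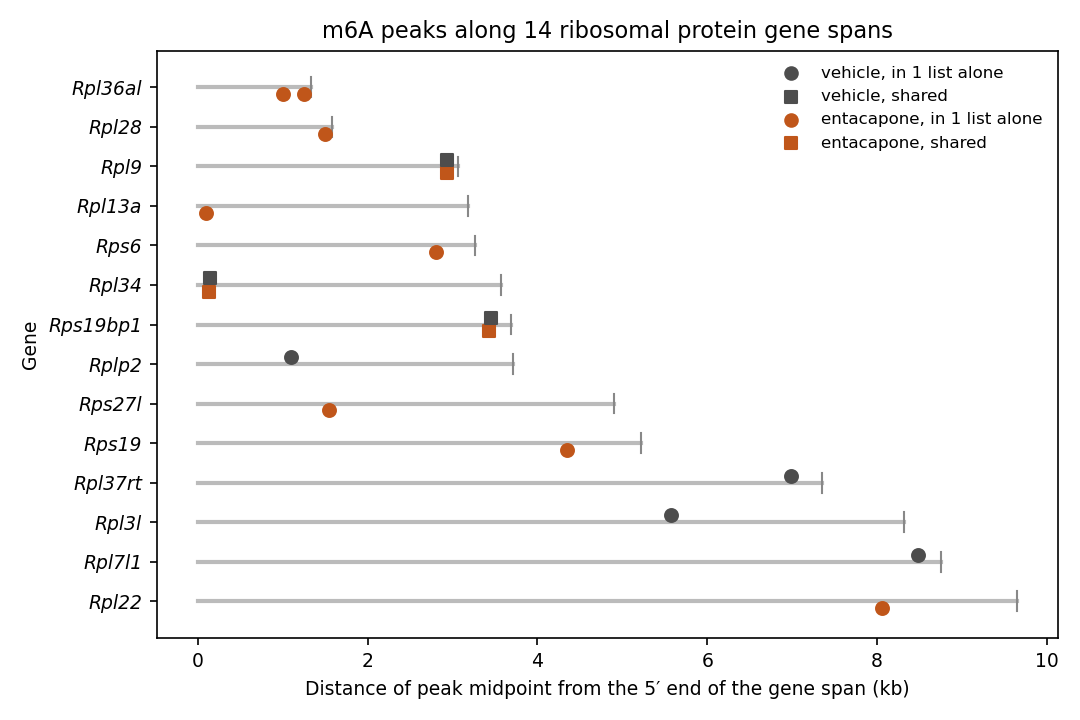
Position of each m6A peak (midpoint, kb from the 5′ end of the gene span) in the 14 peak-bearing members with a known strand, Rps19bp1 among them. Grey lines are gene spans ending at the vertical tick, squares are shared peaks and circles peaks in 1 list alone. Rpl34 and Rpl13a have their peaks near the 5′ end, and Rpl9, Rpl28, Rps19bp1, Rpl37rt, Rpl7l1, Rps6 and Rpl36al have theirs within 500 bp of the 3′ end.

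Most member peaks lay near a 3′ end when copies and Rps19bp1 were counted with the standard ribosomal proteins. Of the standard proteins, Rpl9 had its peaks within 500 bp of the 3′ end in both lists, and Rpl28 and Rps6 in the entacapone list. The peaks of Rpl34, Rplp2, Rpl13a, Rpl22 and Rps19 lay further from it. The other peaks within 500 bp were those of Rpl37rt, Rpl7l1, Rpl36al and Rps19bp1. Of the 7 vehicle peaks, all in genes of known strand, 4 had a midpoint within 500 bp of the 3′ end of the span (57.1%) and 1 within 500 bp of the 5′ end (14.3%). Of the 11 entacapone peaks in genes of known strand, 6 lay within 500 bp of the 3′ end (54.5%) and 2 of the 5′ end (18.2%). For other protein-coding genes with spans of 1 to 10 kb the 3′ shares were 21.0% and 22.2% and the 5′ shares 12.3% and 14.6%. The members are shorter than those genes, so a window of 500 bp covers more of their span, and the values are a description. The map of peak positions shows the 3′ group and, apart from it, the 5′ peaks of Rpl34 and Rpl13a.

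The folds of the member peaks were low, above all in the entacapone list. The 12 entacapone peaks had folds from 1.5 to 2.23 with a median of 1.89, where the whole entacapone list had a median of 3.10 and a lowest value of 1.49. They stood between percentiles 0.0408 and 22.3 of that list, so all 12 lay below its median, and 9 of them (75.0%) were under 2, against 13.6% of the whole list. The 7 vehicle peaks had folds from 1.89 to 5.59 with a median of 2.75, where the vehicle list had a median of 3.32 and a lowest value of 1.58. Of these, 5 lay below the list's median, and Rpl3l and Rpl37rt stood at percentiles 77.0 and 86.2. Among standard ribosomal proteins the highest fold was 2.75, in Rpl34.

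**Figure D4:**
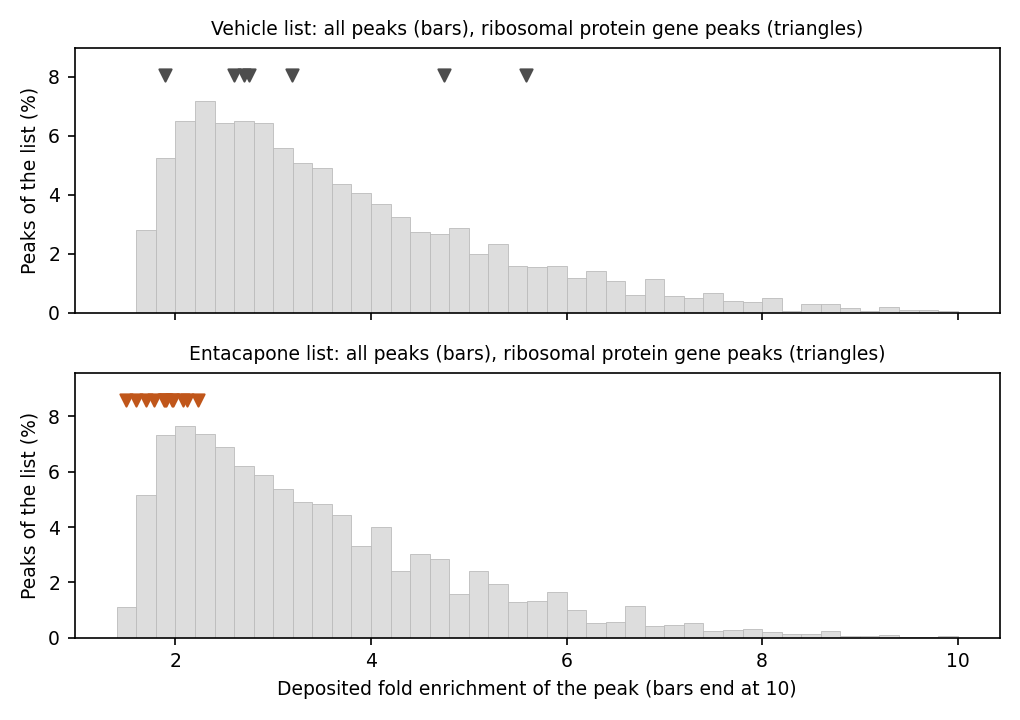
Deposited fold enrichment of the peaks in ribosomal protein genes (triangles) above the distribution of all peaks of the same list (bars, % of the list); vehicle above, entacapone below. The 12 entacapone triangles lie between 1.5 and 2.23, at the low end of the list, and the 7 vehicle triangles spread from 1.89 to 5.59.

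Over all members, the order of the libraries therefore turned with the lowest fold kept. With all peaks, 7 members had a vehicle peak and 11 an entacapone peak. At a fold of at least 2, 6 members had a vehicle peak (6.59%) and 3 an entacapone peak (3.30%), where 38.6% and 45.2% of all protein-coding genes had one. The 3 were Rpl9, Rpl36 and Rps19bp1. At a fold of at least 4, 2 members had a vehicle peak, Rpl3l and Rpl37rt, and 0 an entacapone peak (interval up to 3.97%), where 19.8% and 21.8% of all protein-coding genes had one. Among the 77 standard subunits alone, 2 had a peak in each list at a fold of at least 2, and 0 at a fold of at least 4. Of the 13 copies and relatives, 3 had a vehicle peak and 0 an entacapone peak at a fold of at least 2. The entacapone list was also shortened by rank to the 22860 peaks of the vehicle list, which keeps entacapone peaks from a fold of 2.39 upwards. Then 7 members had a vehicle peak and 0 an entacapone peak. The highest entacapone fold of a member, 2.23, lies below that cut, so the 0 follows from the folds already given. Of the other protein-coding genes, 42.2% had an entacapone peak of fold at least 2.25 and 39.1% one of at least 2.5. Over the other protein-coding genes the entacapone list held more genes with a peak at folds of at least 2 and of at least 4. The 8 members gained in entacapone thus rest on peaks with folds between 1.5 and 2.23.

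**Figure D5:**
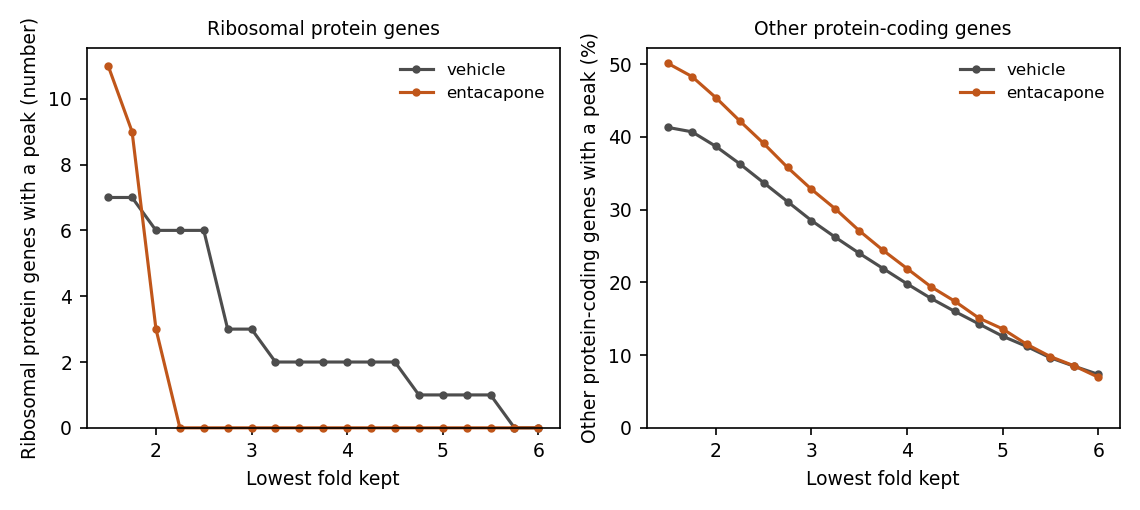
Left, number of ribosomal protein genes with a peak in each list as the lowest fold kept rises from 1.5 to 6; right, the share of other protein-coding genes with a peak (%) at the same folds. The entacapone line falls from 11 genes with all peaks to 3 at a fold of 2, below the 6 of vehicle, whereas for other genes it is above vehicle at those folds. Among the 77 standard subunits alone, 2 had a peak in each list at a fold of at least 2.

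Other genes of protein synthesis were counted in the same way, beside the 41.1% (vehicle) and 50.0% (entacapone) of all protein-coding genes with a peak. Fau and Rack1, ribosomal protein genes outside the symbol rule, had 0 peaks in both lists, like most members. Of 31 genes for translation factors and other TOP mRNAs, 4 had a vehicle peak and 11 an entacapone peak. Among them Hnrnpa1, an RNA-binding protein, had 2 peaks in each list, Eif3j1, a loosely bound subunit of initiation factor eIF3, had 1 and 2, Eif3a, the scaffold of eIF3, had 0 and 2, and Naca, a chaperone at the ribosome's exit tunnel, had 0 and 2.

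Of 34 genes for the making of ribosomes, 25 had a vehicle peak and 26 an entacapone peak, 46 and 69 peaks in all, beside shares over all protein-coding genes of 41.1% and 50.0%. Polr1a, the largest subunit of RNA polymerase I, had 4 and 5, Nop58, a core protein of box C/D snoRNPs, had 3 and 4, and Nop14, a small-subunit assembly factor, had 1 and 7. Myc, which drives ribosome production, had 3 and 4 in a span of 5021 bp.

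Of 23 genes of the mTORC1 and LARP1 axis, 16 had a vehicle peak and 20 an entacapone peak, beside the same 41.1% and 50.0% over all protein-coding genes. Larp1, which binds the TOP tract, had 4 and 7 peaks, Rps6kb1, an S6 kinase, had 2 and 4, Tsc1, an upstream inhibitor of mTORC1, had 2 and 4, and Eif4ebp2, a translation repressor that mTORC1 inactivates, had 3 and 3. The median spans of these 3 lists, 11645, 12356 and 36861 bp, were all longer than the 3175 bp of the ribosomal protein genes, and the differences between lists were not tested.

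Many members have pseudogenes, counted here by name and not compared by sequence. RefSeq lists a pseudogene of the same name for 63 members, up to 24 for Rpl31. Of the 15 members with a peak, 10 have such a copy, Rps19 with 13, Rpl36 with 10 and Rpl9 with 9, while Rpl3l, Rpl37rt, Rpl36al, Rps27l and Rps19bp1 have none. No source used here says how reads that fit several copies were treated, and the part of such copies in the number of peaks was not tested. Rpl10l, Rpl22l1 and Rpl39l, further copies of the family, had 0 peaks in both lists.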

How the data were processed

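The submitters' processing notes name mouse assembly mm10, MACS2 and TopHat2 (2.1.1). The peak threshold, the counting tool and the handling of multiply mapped reads were not given in the sources used here. Each deposited peak list gives chromosome, start, end and an unlabelled number that never falls below 1, which was taken to be the authors' fold enrichment on a linear scale, the ratio of IP to input. Whether starts count from 0 or 1 is not stated, and positions are printed as deposited. The deposited input values are raw counts per Ensembl gene identifier. No table used here pairs those identifiers with symbols, so every planned comparison of input levels was left out and the counts give library totals only.

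Peaks were placed in RefSeq GRCm38.p6 gene spans by midpoint, and peaks overlapping by at least 1 bp were called shared. Strand came from the RefSeq promoter windows, which matched 70 of 91 members. Shares carry exact (Clopper-Pearson) 95% binomial intervals (Python 3.11.15, scipy 1.17.1), and the assignment was tested on simulated data. Every member with a peak was named, and at most 4 genes with a peak per other list. The members, their classes and all lists were chosen with earlier results of these data known. Alternatives covered the lowest fold, list length, overlap and assignment.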

Additional observations from a re-analysis of the deposited data

How the results depend on the processing

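Of 31 alternative values of the members' counts, 18 stayed within 1.5 times the reported value and 13 moved. Peaks of fold at least 2 gave 3 entacapone members with 3 peaks and 1 shared peak. Peaks of fold at least 4 gave 2 vehicle members with 2 peaks, and 0 entacapone members, 0 entacapone peaks and 0 shared peaks. The same number of top-ranked peaks gave 0 entacapone members, 0 entacapone peaks and 0 shared peaks; by construction it drops entacapone peaks alone, 8996 of them. Limiting the members to standard subunits, chosen after seeing the data, gave 3 vehicle members with 3 peaks. Any overlap with the span, midpoints in no other gene and an overlap of 50% of the shorter peak changed no count. The alternatives for input levels and the planned share of input counts were not run because identifiers could not be paired with symbols. Without IP depth or replicates, a missing peak cannot be told apart from a peak under the caller's threshold.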

Other observations

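Ribosomal protein pseudogenes also carried peaks, with folds from 1.75 (Rps4l, entacapone) to 10.5 (Rpl36a-ps3, vehicle). Of 324 pseudogenes with a symbol of the same form, 10 had a vehicle peak (3.09%) and 12 an entacapone peak (3.70%), and for 4 in each list the midpoint also lay in a protein-coding span. Rpl7a-ps12 and Rps7-ps3 were both counted for the same peak in each list. The share over other pseudogenes was not computed. Rps19-ps3, a transcribed pseudogene, had shared peaks at chr4:147821783-147822083 (fold 6.59, vehicle) and chr4:147821801-147822015 (fold 4.31, entacapone). Rpl9-ps6 had an entacapone peak of fold 7.51 at chr19:32465908-32466033, where the Rpl9 gene had one of fold 2.12. Rpl36-ps12, inside Sumf1, had shared peaks of fold 4.50 and 6.22. Rps4l, which RefSeq classes as a transcribed pseudogene and whose peaks also lie in Tmtc1, had shared peaks of fold 2.03 and 1.75.

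Just outside the members' spans, within 1 kb, lay 7 vehicle and 16 entacapone peak midpoints, 6 and 13 of them in the span of another gene such as Tbc1d8 beside Rpl31 and Mgat2 beside Rpl36al.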
